A study of Mus musculus with 39 samples.

Results

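The genes described here are 33 mouse genes of amino acid synthesis and transport and of the stress response that runs with it, taken by gene symbol from the count table of cultured lung fibroblasts given the complement protein C1q. All 33 symbols were among the 30012 gene names of the table, and 32 of them were among the 14419 genes with enough counts to be tested. By role, 8 are enzymes of serine, glycine and one-carbon metabolism, 8 are other amino acid enzymes, 2 make cysteine, 10 are membrane transporters and 5 are stress-response genes. The untested gene was Cbs, the enzyme that makes cystathionine from homocysteine and serine, with 101 counts over all libraries and 0 in 4 of them.

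The cells were grown from lungs of wild-type C57BL/6 mice after magnetic beads had removed cells positive for CD45 or Ter119 (blood), CD31 (endothelium), EpCAM (epithelium) or CD146 (mural and endothelial cells). They adhered and were passaged in DMEM with 10% FBS, were then kept without serum for 24 h, and received C1q. This protein starts the classical pathway of complement. The doses were 1, 10 and 100 µg/ml and the times were 2, 24, 48 and 72 h. These 12 groups and the untreated group, taken at 0 h, held 3 libraries each. All 13 groups share the strain, the depletion and the starvation. Poly(A) RNA was read at the 5′ end of transcripts. Replicate numbers only name the libraries of a group. Since the untreated cells were taken at 0 h, C1q and time in culture cannot be told apart in comparisons with them. No group given the C1q buffer alone was used here.

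Cells that run short of an amino acid activate the kinase GCN2 through uncharged tRNA, and other stresses activate sister kinases. All of these lead to translation of the transcription factor ATF4. ATF4 binds composite C/EBP-ATF elements, also called amino acid response elements, and raises genes that import amino acids, make them and charge them to tRNA. The growth kinase mTORC1, which responds to serum factors and amino acids, also acts through ATF4. In fibroblasts these pathways feed collagen synthesis, which draws heavily on glycine and proline.

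Because many of these genes are known ATF4 targets, their promoters were searched for the core of that element, TGATGNAA on either strand, in the window of 250 bases before to 50 bases after the gene start (RefSeq, GRCm38.p6). Of the 33 genes, 28 had a window in the table, and 6 of these (21.4%) held the motif, against 2.86% of the 11009 tested genes with a window and 4.51% of all 27025 genes with one. The exact form TGATGCAA was in 5 of the 28 (17.9%), against 0.754% of the tested genes. The palindrome TGACGTCA, a full CRE site, was in 0 of the 28, against 3.35%. A match is a run of letters and not a shown binding site. The 6 windows follow, each 40 bases long and read 5′ to 3′ on the strand of the gene, with the motif or its reverse complement in capitals. They are shown as the windows that hold the motif, and its link to the response to C1q was not tested.
Asns (chr6:7693209-7693248, - strand): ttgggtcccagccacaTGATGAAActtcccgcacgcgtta
Pycr1 (chr11:120643828-120643867, - strand): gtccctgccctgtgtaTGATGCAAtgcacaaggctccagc
Got1 (chr19:43524684-43524723, - strand): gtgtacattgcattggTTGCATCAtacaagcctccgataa
Slc1a4 (chr11:20332694-20332733, - strand): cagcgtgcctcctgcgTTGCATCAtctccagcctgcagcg
Chac1 (chr2:119351033-119351072, + strand): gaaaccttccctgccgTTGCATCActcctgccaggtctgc
Nupr1 (chr7:126625557-126625596, - strand): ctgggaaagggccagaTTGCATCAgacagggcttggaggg

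Library totals were 1806106 to 3012518 counts, and levels are given as CPM, that is counts relative to the library total after TMM scaling. The first principal component held 40.3% of the variance. The libraries of 0 and 2 h lay at -54.5 to -40.8 on it. Those of 0 h, at -44.2 to -40.8, overlapped with library 3 of 100 µg/ml at 2 h, at -42.1. The libraries of 24, 48 and 72 h followed on this component in order of time. On it library 3 of the group given 1 µg/ml for 24 h was set apart with 12.5, against -0.511 and 0.555 for the others. That library, those of 10 and 100 µg/ml at 24 h and libraries 1 and 2 of 1 µg/ml at 48 h have column names spelled unlike the rest. All 10 fibroblast markers were present, with a summed level of 7529 to 12130 CPM per library. Other cell types were also present. The summed level of 10 epithelial markers was 105 to 124 CPM at 1 µg/ml and 99.3 to 116 CPM at 100 µg/ml after 72 h, against 530.1 to 627 CPM in untreated cells, and Scgb1a1, a defining club cell marker, was at 0 in 16 libraries. The sum of 12 myeloid markers was 1258 to 1344 CPM at 1 µg/ml, 1406 to 1616 CPM at 10 µg/ml and 947 to 1170 CPM at 100 µg/ml after 72 h, against 267 to 292 CPM in untreated cells, with Mrc1 and Adgre1 each at 0 in 1 library. All 12 myeloid markers rose and all 10 epithelial markers fell against untreated cells at each dose at 72 h, and their part in the results below was not tested.

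Between 15 and 23 of the 32 tested amino acid genes were lower than in untreated cells at each dose at 24, 48 and 72 h, after a short rise of a few transporters at 2 h. A gene was called where edgeR's quasi-likelihood test gave a Benjamini-Hochberg adjusted p under 0.05 over all tested genes. Differences are log2 values ± SE with 3 libraries per group. In bulk RNA, fewer cells of a type and less RNA per cell cannot be told apart. At 2 h, 4, 6 and 3 of the 32 genes rose at 1, 10 and 100 µg/ml, against 4.28%, 7.64% and 3.14% of all genes tested. None fell (0 at each dose), against 1.87%, 5.1% and 2.02% of all genes. At 24 h, 15, 16 and 18 fell, against 14.3%, 15.3% and 19.9% of all genes. At this time 2, 2 and 4 rose, against 10.9%, 12.5% and 16.8% of all genes. At 48 h, 19, 18 and 18 fell, against 17.1%, 17.5% and 20.9% of all genes, while 2, 1 and 2 rose, against 16%, 17% and 19.1%. At 72 h, 22, 23 and 20 fell (68.8%, 71.9% and 62.5% of the 32, against 20.1%, 20.6% and 23.3% of all genes). The numbers that rose were 2, 2 and 4, against 18.1%, 19.3% and 22.5%.

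The median log2 difference of the 32 genes from untreated cells was 0.07, 0.15 and 0.07 at 2 h for 1, 10 and 100 µg/ml, -0.36, -0.41 and -0.64 at 24 h, -0.58, -0.69 and -0.61 at 48 h and -0.79, -0.80 and -0.73 at 72 h. Over all tested genes the medians of these comparisons lay between -0.03 and 0.05. Of the 203 calls against untreated cells, 201 (99%) came from libraries that did not overlap between the groups, against 94.8% of such calls over all genes. The genes that fell at every dose at 24, 48 and 72 h were 12 (37.5% of the 32, against 7.68% of all genes), namely Aldh18a1, Asns, Bcat1, Got2, Mthfd1, Mthfd1l, Mthfd2, Phgdh, Psat1, Psph, Shmt2 and Stc2, and 0 rose at all of these times and doses, against 3.94% of all genes. Among these, the Aldh18a1 call at 1 µg/ml and 24 h did not hold without library 1 or 3 of 1 µg/ml (adjusted p = 0.0575 or 0.0565) or library 1 of untreated cells (adjusted p = 0.0977). The threshold was also missed in a robust fit (adjusted p = 0.0544). That at 10 µg/ml and 24 h was lost without library 2 of 10 µg/ml (adjusted p = 0.0905) or library 1 of untreated cells (adjusted p = 0.0692). It fell short as well with a term for header spelling (adjusted p = 0.159). The Bcat1 call at 1 µg/ml and 24 h did not hold without library 1 of untreated cells (adjusted p = 0.0566). The Stc2 call at 1 µg/ml and 48 h was lost without library 1 or 3 of 1 µg/ml (adjusted p = 0.0619 or 0.0708) or library 2 of untreated cells (adjusted p = 0.0564). Got1, Slc38a1 and Slc43a1 had no call against untreated cells. These comparisons share the 3 untreated libraries. At 1 µg/ml and 2 h, leaving out single libraries gave 2 to 3 calls against 4 with all libraries, with 2 without untreated library 1.

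**Figure D1:**
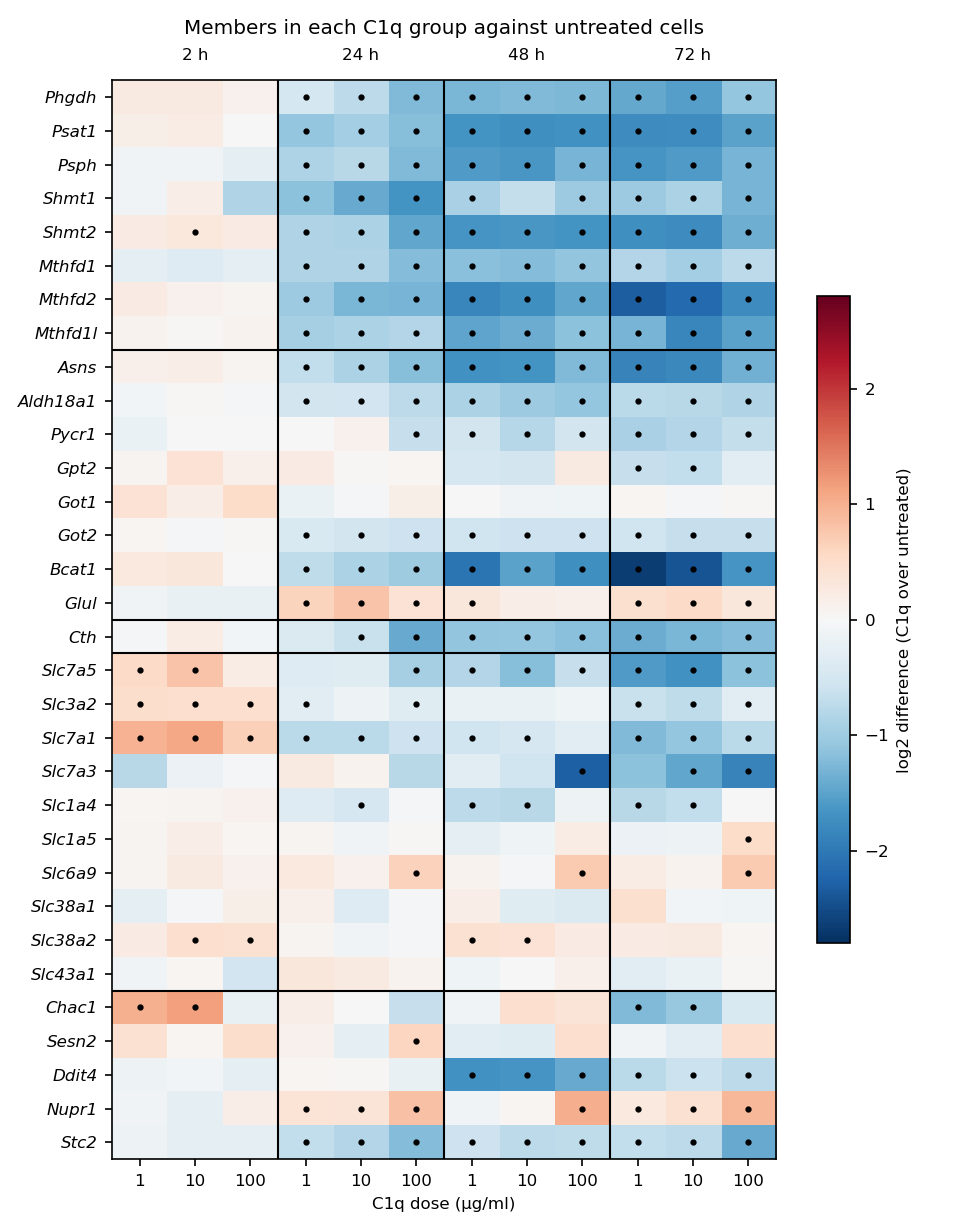
Log2 difference from untreated cells (colour) for the 32 tested genes (rows, grouped by role) in the 12 C1q groups (columns, by time and dose); a dot marks an adjusted p under 0.05. The 8 serine, glycine and one-carbon genes are blue in every group at 72 h, while Glul and Nupr1 are among the few in red.

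The doses were compared at each time, which holds time in culture equal, although whatever else the C1q stock carried rises with the dose and cannot be told apart from it. The spelling of the column names also went partly with the dose. At 24 h all libraries of 100 µg/ml but only library 3 of 1 µg/ml had the other spelling. At 48 h libraries 1 and 2 of 1 µg/ml had it and none of 100 µg/ml. At 100 over 1 µg/ml, several amino acid genes were lower at 24 h and several were higher at 48 and 72 h. At 2 h, 0 genes were higher and 1 was lower, against 1.28% and 1.94% of all genes tested. At 24 h, 1 was higher and 6 were lower (18.8% of the 32), against 3.77% and 7.21% of all genes. At 48 h, 7 were higher (21.9% of the 32) and 0 were lower, against 3.82% and 6.44% of all genes. At 72 h, 9 were higher (28.1% of the 32) and 1 was lower, against 4.99% and 6.51% of all genes. The median log2 difference of the 32 genes was -0.03, -0.22, 0.12 and 0.32 at 2, 24, 48 and 72 h, against -0.02, 0.03, -0.01 and 0.00 for all tested genes. In all, 17 genes (53.1% of the 32) were called at 1 or more times, against 23.9% of all genes. Of the 25 calls, 24 (96%) came from libraries that did not overlap, against 94.5% of such calls over all genes.

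The count at 24 h was 4 (1 higher and 3 lower) with a term for the spelling of the column names and 4 (all lower) when the fit held only the libraries compared. Leaving out library 3 of 1 µg/ml gave 8, of which 6 were among the 7. At 48 h, leaving out single libraries gave 2 to 6 calls against 7 with all libraries, with 2 without library 2 of 1 µg/ml at 48 h, 3 without library 3 of 100 µg/ml at 48 h and 4 without library 3 of 1 µg/ml at 48 h or library 2 of 100 µg/ml at 48 h. At 72 h, leaving out single libraries gave 5 to 8 calls against 10 with all libraries, with 5 without library 3 of 100 µg/ml at 72 h and 6 without library 1 of 1 µg/ml at 72 h or library 2 of 100 µg/ml at 72 h. For 10 over 1 µg/ml, which shares the 1 µg/ml libraries with the comparison above, edgeR called 0 of the 32 at each time, against 0.839%, 0.0485%, 0.208% and 0% of all genes at 2, 24, 48 and 72 h. At an unadjusted p under 0.05 there were 1, 1, 2 and 2 genes at these times, and DESeq2 called 0 at each time.

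**Figure D2:**
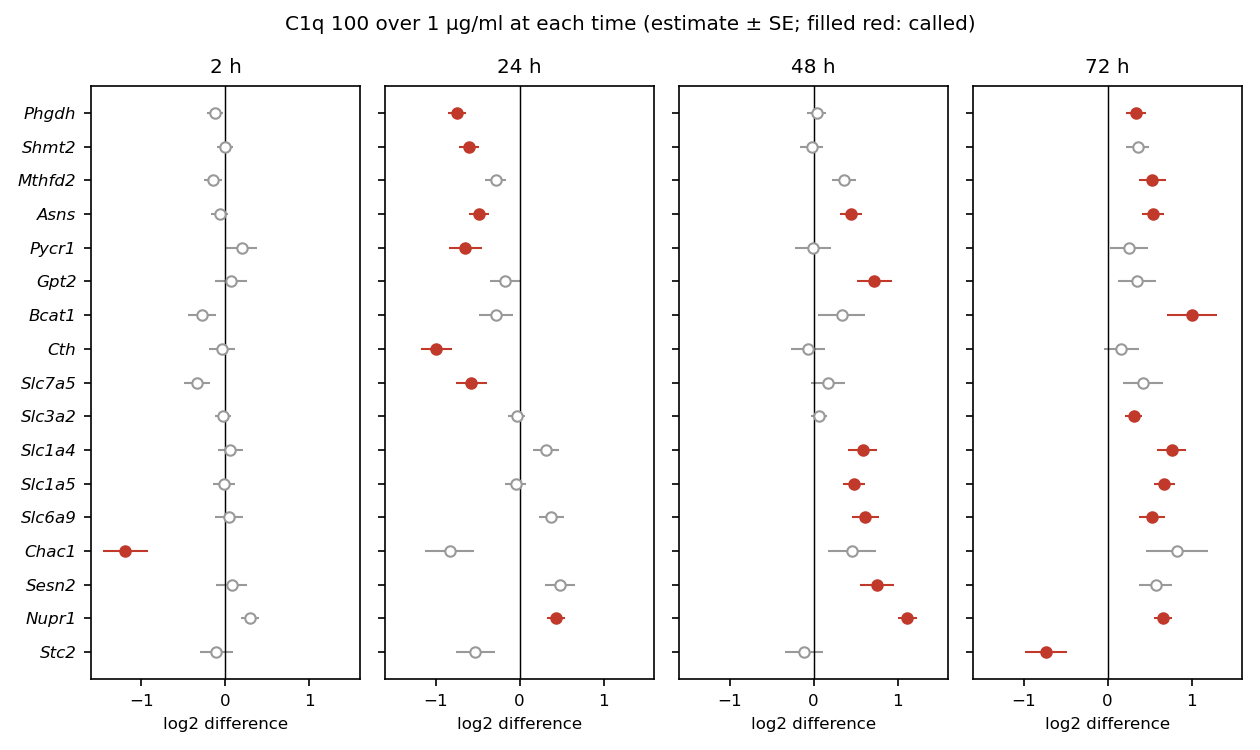
Log2 difference of 100 over 1 µg/ml C1q (horizontal axis, ± SE) for the 17 genes called at 1 or more times (rows). Each of 2, 24, 48 and 72 h has its own panel, and filled red points mark an adjusted p under 0.05. Phgdh, Shmt2, Asns and Cth dip at 24 h, and Slc1a4, Slc1a5, Slc6a9 and Nupr1 lie above 0 at 48 and 72 h.

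The enzymes of serine, glycine and one-carbon metabolism fell together. Phgdh, Psat1, Psph, Shmt2, Mthfd1, Mthfd2 and Mthfd1l were lower than in untreated cells at every dose at 24, 48 and 72 h. The shares of all genes that fell in each comparison are those given above. With Shmt1, cytosolic serine hydroxymethyltransferase, all 8 were lower at every dose at 24 h, with medians of -0.90, -0.88 and -1.24 at 1, 10 and 100 µg/ml, and all 8 again at every dose at 72 h, with medians of -1.54, -1.66 and -1.33. At 48 h the counts were 8, 7 and 8, the exception being Shmt1 at 10 µg/ml. Shmt1 had only 1.36 to 9.26 CPM over all libraries. In 5 of its 8 called groups the call was lost on leaving out untreated library 3, with adjusted p of 0.0945, 0.157 and 0.112 at 1 µg/ml at 24, 48 and 72 h, 0.147 at 10 µg/ml at 72 h and 0.12 at 100 µg/ml at 48 h. It was also lost without single C1q libraries of these groups (adjusted p of 0.0587 to 0.19) and, at 1 µg/ml and 48 h and at 10 µg/ml and 72 h, without untreated library 1 (adjusted p = 0.0647 and 0.0578). With DESeq2 it was lost in the same 5 groups, with adjusted p of 0.0585 to 0.112, and without the filter on low counts in 4 of them, with adjusted p of 0.0581 to 0.104. A fit of only the libraries compared lost it at 1 µg/ml and 24 h (adjusted p = 0.0523), and a robust fit and leaving out the row LOC118568312 lost it at 1 µg/ml and 48 h (adjusted p = 0.0551 and 0.052). With a term for header spelling, the calls at 10 µg/ml and 24 h were lost for Psph (adjusted p = 0.489) and Mthfd1 (adjusted p = 0.154).

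Phgdh, on chromosome 3 (98313171 to 98339969), encodes phosphoglycerate dehydrogenase, which takes the first step from glycolysis to serine. It had 48.7, 56.3 and 59.9 CPM in the 100 µg/ml libraries at 24 h, against 85.2, 101 and 91.9 CPM at 1 µg/ml, and untreated cells had 130.3, 128 and 133 CPM. No library of 100 µg/ml overlapped with 1 µg/ml, and both doses lay below untreated cells. The difference of 100 over 1 µg/ml was -0.75 ± 0.11 (adjusted p = 1.79e-06). At 48 h the libraries of 100 and 1 µg/ml overlapped, with 53.6, 49.4 and 61.8 CPM at 100 µg/ml and 52.6, 52.9 and 55.1 CPM at 1 µg/ml. At 72 h they parted the other way, with 60.8, 63.5 and 58.7 CPM at 100 µg/ml and 49.9, 42.6 and 52.5 CPM at 1 µg/ml (0.34 ± 0.12, adjusted p = 0.0486). The call did not hold without library 1, 2 or 3 of 100 µg/ml (adjusted p = 0.108, 0.186 or 0.0761) or library 1 or 2 of 1 µg/ml (adjusted p = 0.0875 or 0.247). The threshold was also missed with RLE scaling (adjusted p = 0.0724), without the filter on low counts (adjusted p = 0.244), without the row LOC118568312 (adjusted p = 0.0698), with a term for header spelling (adjusted p = 0.051), in a fit of only the libraries compared (adjusted p = 0.0711) and with DESeq2 (adjusted p = 0.128).

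Shmt2, the mitochondrial serine hydroxymethyltransferase that splits serine into glycine and a one-carbon unit (chromosome 10, 127517123 to 127522444), was also lower at 100 than at 1 µg/ml at 24 h. It had 30.9, 35.5 and 36.6 CPM at 100 µg/ml, against 47.3, 58.7 and 50.8 CPM at 1 µg/ml, a difference of -0.61 ± 0.12 (adjusted p = 0.000326), without overlap. Untreated cells had 102, 88.9 and 89.8 CPM. At 2 h and 10 µg/ml it had 107, 111 and 128 CPM, above all untreated libraries (0.29 ± 0.10, adjusted p = 0.0439). The call at 2 h was lost without library 1, 2 or 3 of 10 µg/ml (adjusted p = 0.058, 0.0689 or 0.251) or library 2 or 3 of untreated cells (adjusted p = 0.184 or 0.174). It fell short as well without the filter on low counts (adjusted p = 0.138), in a robust fit (adjusted p = 0.0512), in a fit of only the libraries compared (adjusted p = 0.062) and with DESeq2 (adjusted p = 0.0923). At 72 h the difference of 100 over 1 µg/ml was 0.36 ± 0.13 and not called (adjusted p = 0.0777). Psat1 and Psph, which carry the phosphorylated intermediate on to serine, were not called between doses at 24 h, with differences of -0.12 ± 0.10 and -0.37 ± 0.16.

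Mthfd2, the mitochondrial methylene-tetrahydrofolate dehydrogenase (chromosome 6, 83305704 to 83326011), gave its dose difference late. After 72 h it had 38.5, 39.7 and 30.8 CPM at 100 µg/ml and 25.1, 23.6 and 26.9 CPM at 1 µg/ml, which did not overlap (0.53 ± 0.16, adjusted p = 0.0205). Untreated cells had 121, 136 and 117 CPM, so its level at 1 µg/ml lay -2.30 ± 0.14 on the log2 scale away from them (adjusted p = 7.9e-19). The call of 100 over 1 µg/ml did not hold without library 1 or 2 of 100 µg/ml (adjusted p = 0.0726 or 0.126) or library 1 or 2 of 1 µg/ml (adjusted p = 0.0607 or 0.0827). Mthfd1 and Mthfd1l are the cytosolic enzyme and the mitochondrial formate-tetrahydrofolate ligase of the same cycle. They fell against untreated cells at 24, 48 and 72 h and were not called between 100 and 1 µg/ml at any time.

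**Figure D3:**
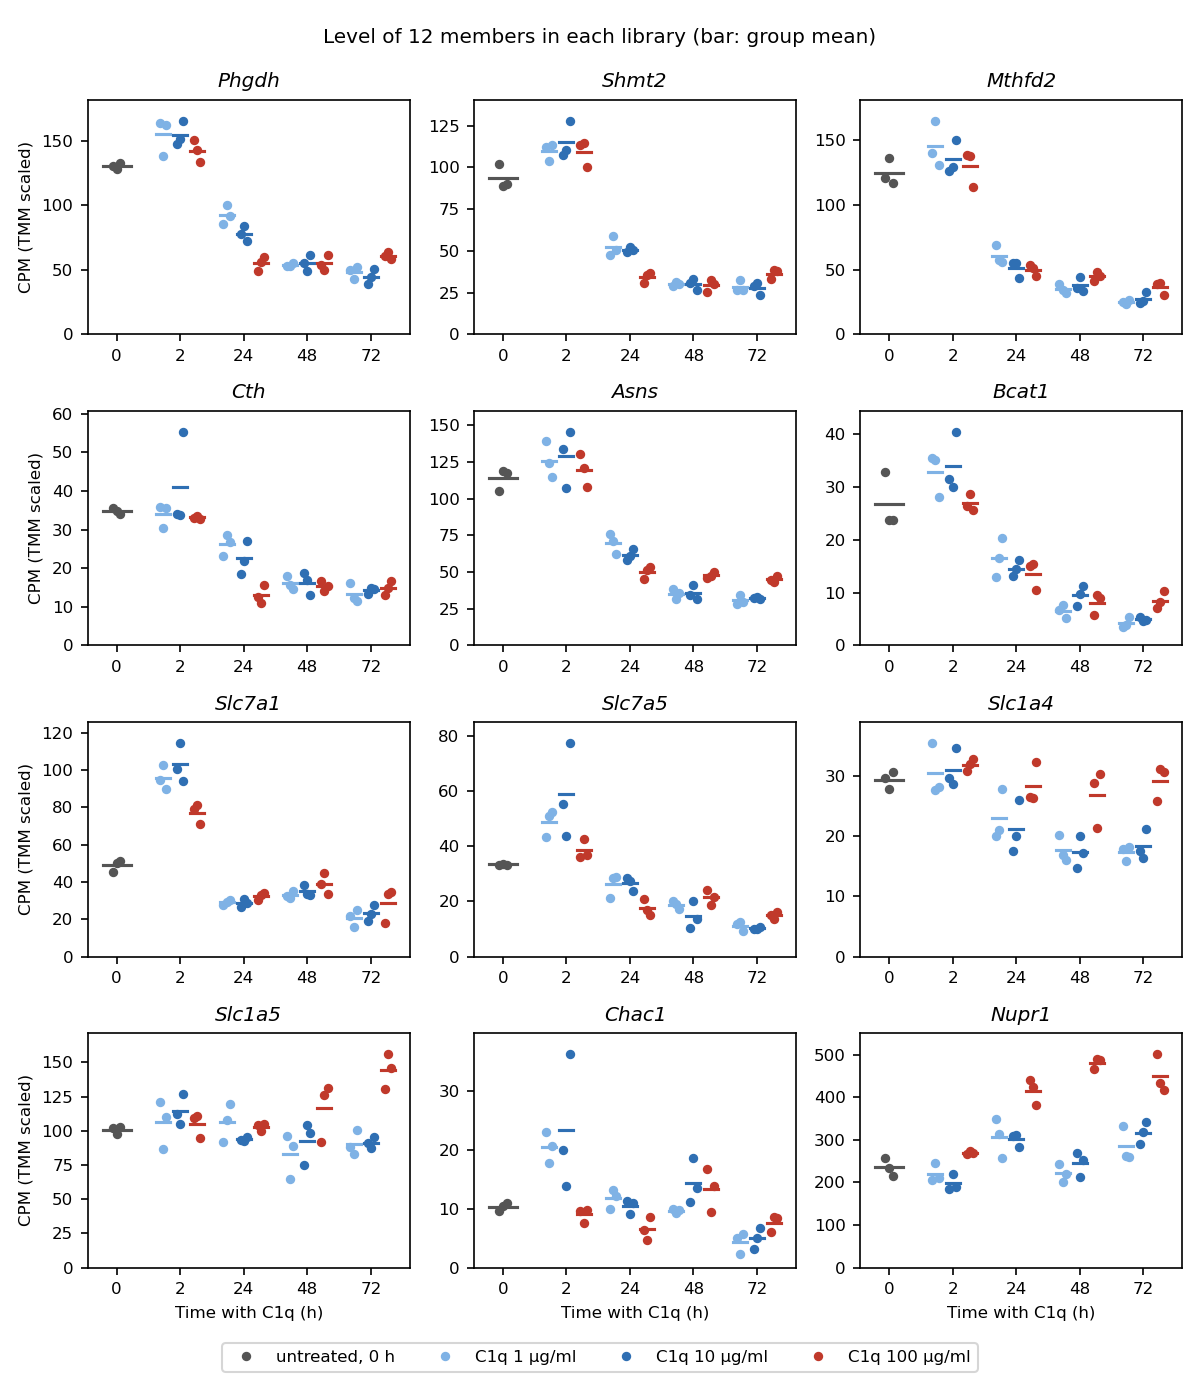
Level in each library (CPM, points, 3 per group) of 12 genes by time, coloured by C1q dose, with untreated cells at 0 h. A short bar marks each group mean. The 100 µg/ml libraries of Phgdh, Shmt2, Asns and Cth lie lowest at 24 h, and those of Nupr1 lie highest from 24 h on.

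Among the 8 other amino acid enzymes, 4, 4 and 5 fell against untreated cells at 24 h for 1, 10 and 100 µg/ml, where 14.3%, 15.3% and 19.9% of all genes fell. At 72 h 6, 6 and 5 of the 8 fell, where 20.1%, 20.6% and 23.3% of all genes did, and of these enzymes Glul alone rose at 24 and 72 h. Glul, glutamine synthetase (chromosome 1, 153899929 to 153909723), had 236, 292 and 266 CPM at 1 µg/ml, 281, 309 and 303 CPM at 10 µg/ml and 228, 223 and 239 CPM at 100 µg/ml after 24 h, against 185, 173 and 160.1 CPM in untreated cells. All 9 C1q libraries lay above the untreated ones, by 0.62 ± 0.10, 0.79 ± 0.10 and 0.42 ± 0.10 (adjusted p = 4.41e-06, 2.36e-08 and 0.000978). The call at 100 µg/ml and 24 h was lost with a term for header spelling (adjusted p = 0.0987). That at 100 µg/ml and 72 h did not hold without library 3 of untreated cells (adjusted p = 0.0917).

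Asns, asparagine synthetase and a textbook ATF4 target, lies on chromosome 6 (7675165 to 7693209), and its promoter window holds the motif printed above. At 24 h it had 45.5, 51.2 and 53.3 CPM at 100 µg/ml, against 75.9, 71.3 and 62.3 CPM at 1 µg/ml (-0.48 ± 0.11, adjusted p = 0.00292). At 48 h it had 45.7, 47.6 and 50.3 CPM at 100 µg/ml, against 38.6, 31.5 and 35.4 CPM at 1 µg/ml (0.44 ± 0.13, adjusted p = 0.0226). At 72 h it had 44.6, 43.2 and 47.1 CPM at 100 µg/ml, against 28.6, 34.1 and 29.8 CPM at 1 µg/ml (0.54 ± 0.13, adjusted p = 0.00492). The doses did not overlap at any of these times, with 100 µg/ml below at 24 h and above at 48 and 72 h, and all of these libraries lay under the 105, 119 and 118 CPM of untreated cells. The call at 24 h was lost with a term for header spelling (adjusted p = 0.152). The call at 48 h did not hold without library 2 or 3 of 100 µg/ml (adjusted p = 0.0624 or 0.0946) or library 2 or 3 of 1 µg/ml (adjusted p = 0.12 or 0.0594). It also missed the threshold without the filter on low counts (adjusted p = 0.102) and with a term for header spelling (adjusted p = 0.179). The call at 72 h was kept in every alternative.

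Bcat1, the cytosolic branched-chain aminotransferase (chromosome 6, 144993835 to 145076157), had the widest span of group means among the 32 tested genes, 8.06-fold between 10 µg/ml at 2 h and 1 µg/ml at 72 h. After 72 h it had 7.10, 8.18 and 10.3 CPM at 100 µg/ml and 3.41, 3.87 and 5.38 CPM at 1 µg/ml, against 32.9, 23.7 and 23.8 CPM in untreated cells. Both doses lay below untreated cells without overlap, and 100 µg/ml lay above 1 µg/ml by 1.01 ± 0.30 (adjusted p = 0.0216). That call was lost without library 2 or 3 of 100 µg/ml (adjusted p = 0.0541 or 0.117) or library 1 or 2 of 1 µg/ml (adjusted p = 0.103 or 0.0764). It was also lost without the filter on low counts (adjusted p = 0.0574) and with DESeq2 (adjusted p = 0.0519).

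Pycr1 makes proline in its last step from pyrroline-5-carboxylate (chromosome 11, 120638998 to 120643748). It had 17.4, 10.6 and 13.2 CPM at 100 µg/ml, against 19.7, 21.7 and 22.9 CPM at 1 µg/ml and 18.8, 23.2 and 22.6 CPM in untreated cells at 24 h. The 100 µg/ml libraries lay below all others, and the difference from 1 µg/ml was -0.64 ± 0.19 (adjusted p = 0.0207). The dose call did not hold without library 2 or 3 of 100 µg/ml (adjusted p = 0.135 or 0.0692) or library 2 of 1 µg/ml (adjusted p = 0.0656). The threshold was also missed with a term for header spelling (adjusted p = 0.0783) and in a fit of only the libraries compared (adjusted p = 0.0924). Aldh18a1, which makes the precursor of proline from glutamate, fell against untreated cells at 24, 48 and 72 h, and its difference of 100 over 1 µg/ml at 24 h was -0.21 ± 0.18 and not called.

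Gpt2, the mitochondrial alanine aminotransferase (chromosome 8, 85492576 to 85528902), had 26.3, 25.4 and 19.4 CPM at 100 µg/ml, against 15.1, 12.9 and 14.96 CPM at 1 µg/ml after 48 h (0.72 ± 0.21, adjusted p = 0.0179), and untreated cells had 20.8, 21.6 and 17.9 CPM. The 100 µg/ml libraries lay above those of 1 µg/ml and overlapped untreated cells. Its call was lost without library 1 or 2 of 100 µg/ml (adjusted p = 0.0741 or 0.0848) or library 2 of 1 µg/ml (adjusted p = 0.0762). It fell short as well with a term for header spelling (adjusted p = 0.0504). Got2, the mitochondrial aspartate aminotransferase, had between 64.8 and 124 CPM and fell against untreated cells at every dose from 24 h on, and Got1, its cytosolic counterpart, had no call there.

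Of the cysteine enzymes, Cth could be tested. It encodes cystathionine gamma-lyase, which releases cysteine from cystathionine, and lies on chromosome 3 (157894248 to 157925081). At 24 h it had 12.7, 10.97 and 15.7 CPM at 100 µg/ml, against 23.3, 28.5 and 26.7 CPM at 1 µg/ml and 35.7, 34.7 and 34.1 CPM in untreated cells. The 3 groups did not overlap, and 100 over 1 µg/ml was -0.99 ± 0.18 (adjusted p = 0.000138), which was kept in every alternative. At 48 h the libraries of both doses lay between 14.1 and 18.03 CPM and overlapped, with a difference of -0.07 ± 0.20. At 72 h the difference was 0.16 ± 0.21, and both doses stayed below untreated cells.

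At 2 h, 6 genes rose at 1 or more doses (18.8% of the 32, against 8.74% of all genes). Of these Slc7a1, Slc3a2, Slc7a5 and Slc38a2 are transporters, and the others were Chac1 and Shmt2. Slc7a1, the cationic amino acid transporter CAT1 for arginine and lysine (chromosome 5, 148327410 to 148399904), had 94.7, 103 and 90.00 CPM at 1 µg/ml, 101, 114 and 94.1 CPM at 10 µg/ml and 79.3, 81.4 and 71.2 CPM at 100 µg/ml, against 45.3, 49.99 and 51.5 CPM in untreated cells. Every C1q library lay above every untreated one. The differences were 0.97 ± 0.13, 1.08 ± 0.13 and 0.67 ± 0.13 (adjusted p = 2.67e-07, 1.64e-08 and 0.000868). By 24 h it was below untreated cells at every dose, with 27.6, 29.2 and 30.5 CPM at 1 µg/ml and 30.1, 32.9 and 34.1 CPM at 100 µg/ml, differences of -0.75 ± 0.15 and -0.59 ± 0.15. The call at 100 µg/ml and 24 h did not hold with a term for header spelling (adjusted p = 0.0744).

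Slc3a2, the heavy chain CD98hc that brings several transporters to the membrane, rose by 0.50 ± 0.09, 0.46 ± 0.10 and 0.47 ± 0.10 at 1, 10 and 100 µg/ml at 2 h (adjusted p = 0.000223, 0.000445 and 0.000945). Its partner Slc7a5, the light chain LAT1 for leucine and other large neutral amino acids (chromosome 8, 121881146 to 121907686), had 43.3, 50.7 and 52.3 CPM at 1 µg/ml, 55.3, 43.5 and 77.2 CPM at 10 µg/ml and 36.1, 42.5 and 36.7 CPM at 100 µg/ml, against 33.3, 33.7 and 33.2 CPM in untreated cells at 2 h. The differences were 0.55 ± 0.16 and 0.80 ± 0.16 at 1 and 10 µg/ml (adjusted p = 0.0256 and 0.000229), and at 100 µg/ml 0.21 ± 0.17, which was not called. The Slc7a5 call at 1 µg/ml was lost without library 2 or 3 of 1 µg/ml (adjusted p = 0.0807 or 0.124) or library 1, 2 or 3 of untreated cells (adjusted p = 0.0912, 0.0744 or 0.0886). It was also lost with DESeq2 (adjusted p = 0.059). At 72 h Slc7a5 had 11.9, 12.4 and 9.10 CPM at 1 µg/ml and 15.2, 13.6 and 16.3 CPM at 100 µg/ml, both without overlap below untreated cells (-1.58 ± 0.20 and -1.15 ± 0.20).

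At 24 h Slc7a5 had 20.98, 16.8 and 14.98 CPM at 100 µg/ml, against 21.1, 28.5 and 28.8 CPM at 1 µg/ml, a difference of -0.57 ± 0.19 (adjusted p = 0.0353) from libraries that came close without overlapping. That call did not hold without library 2 or 3 of 100 µg/ml (adjusted p = 0.0945 or 0.165) or library 2 or 3 of 1 µg/ml (adjusted p = 0.155 or 0.0744). The threshold was also missed with a term for header spelling (adjusted p = 0.0751), in a fit of only the libraries compared (adjusted p = 0.109) and with DESeq2 (adjusted p = 0.0559). Slc38a2, the sodium-coupled carrier SNAT2 that is known to rise in amino acid starvation, was higher than in untreated cells after 2 h of 10 µg/ml (0.46 ± 0.10) and of 100 µg/ml (0.42 ± 0.11, adjusted p = 0.00154 and 0.00956). The call at 100 µg/ml was lost without library 2 of untreated cells (adjusted p = 0.0869). Slc38a1, SNAT1, was the one tested gene with no call in any comparison, with 3.63 to 16.5 CPM. Slc7a3, a further cationic transporter, had 0.356 to 5.30 CPM and was not called between 100 and 1 µg/ml at any time.

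From 48 h on, 3 carriers of neutral amino acids were higher at 100 than at 1 µg/ml. Slc1a4, the alanine, serine and cysteine carrier ASCT1 (chromosome 11, 20302180 to 20332713), had 25.8, 31.2 and 30.8 CPM at 100 µg/ml after 72 h, against 17.9, 15.9 and 18.2 CPM at 1 µg/ml, with untreated cells at 29.7, 27.9 and 30.7 CPM. The doses did not overlap, and 100 µg/ml overlapped untreated cells while 1 µg/ml lay below them. The difference was 0.76 ± 0.17 at 72 h (adjusted p = 0.00145), kept in every alternative, and 0.58 ± 0.17 at 48 h (adjusted p = 0.0221). The call at 48 h did not hold without library 1 or 3 of 100 µg/ml (adjusted p = 0.0831 or 0.139) or library 2 or 3 of 1 µg/ml (adjusted p = 0.0758 or 0.0951). It also missed the threshold without the filter on low counts (adjusted p = 0.0811) and with DESeq2 (adjusted p = 0.051).

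Slc1a5, the glutamine carrier ASCT2 (chromosome 7, 16781334 to 16798274), had 131, 156 and 146 CPM at 100 µg/ml after 72 h, against 88.2, 82.8 and 100.5 CPM at 1 µg/ml and 102, 97.3 and 103 CPM in untreated cells. The 100 µg/ml libraries lay above all of these others. The difference of 100 over 1 µg/ml was 0.68 ± 0.13 (adjusted p = 0.000163) and was kept in every alternative. At 48 h it was 0.48 ± 0.13 (adjusted p = 0.0116), from 91.97, 126 and 131 CPM at 100 µg/ml and 96.4, 65.01 and 88.6 CPM at 1 µg/ml, which overlapped. The call at 48 h was lost without library 2 or 3 of 100 µg/ml (adjusted p = 0.0798 or 0.102) or library 2 of 1 µg/ml (adjusted p = 0.138).

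Slc6a9, the glycine transporter GLYT1 (chromosome 4, 117835258 to 117869305), had 38.9, 33.6 and 37.9 CPM at 100 µg/ml after 48 h, against 27.96, 22.2 and 21.3 CPM at 1 µg/ml and 22.04, 20.00 and 24.3 CPM in untreated cells. The 100 µg/ml libraries were the higher ones without overlap, by 0.62 ± 0.16 over 1 µg/ml (adjusted p = 0.00786), and at 72 h by 0.53 ± 0.16 (adjusted p = 0.0206). The call at 48 h did not hold without library 3 of 1 µg/ml (adjusted p = 0.0536). The call at 72 h was lost without library 1 or 3 of 100 µg/ml (adjusted p = 0.101 or 0.0584) or library 1 or 3 of 1 µg/ml (adjusted p = 0.126 or 0.0596). It fell short as well without the filter on low counts (adjusted p = 0.0639) and with DESeq2 (adjusted p = 0.0585). Slc3a2 was also higher at 100 than at 1 µg/ml at 72 h, with 95.8, 107 and 114 CPM at 100 µg/ml and 83.1, 88.6 and 83.9 CPM at 1 µg/ml (0.31 ± 0.10, adjusted p = 0.0398). The Slc3a2 call did not hold without library 2 or 3 of 100 µg/ml (adjusted p = 0.13 or 0.183) or library 1, 2 or 3 of 1 µg/ml (adjusted p = 0.126, 0.0589 or 0.104). It also missed the threshold with RLE scaling (adjusted p = 0.0634), without the filter on low counts (adjusted p = 0.221), without the row LOC118568312 (adjusted p = 0.0584), in a fit of only the libraries compared (adjusted p = 0.0535) and with DESeq2 (adjusted p = 0.1).

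Of the 5 stress-response genes, Nupr1 was the one that was higher at 100 than at 1 µg/ml at 24, 48 and 72 h. It encodes a small stress-induced chromatin protein and lies on chromosome 7 (126623246 to 126625470). At 24 h it had 439.9, 423 and 381 CPM at 100 µg/ml and 348, 313 and 257 CPM at 1 µg/ml. At 48 h it had 466, 489 and 486 CPM at 100 µg/ml and 244, 201 and 219 CPM at 1 µg/ml. At 72 h it had 500.3, 433 and 418 CPM at 100 µg/ml and 333, 261 and 259 CPM at 1 µg/ml. The doses did not overlap at these times, and untreated cells had 259, 234 and 215 CPM. The differences were 0.44 ± 0.11, 1.12 ± 0.11 and 0.66 ± 0.11 (adjusted p = 0.00361, 1.29e-10 and 1.21e-05). The call at 24 h was lost in a fit of only the libraries compared (adjusted p = 0.0604). At 2 h the 100 µg/ml libraries, at 266, 273 and 269 CPM, lay above those of 1 µg/ml, at 205, 247 and 209.9 CPM, and the difference of 0.29 ± 0.11 was not called (adjusted p = 0.159).

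Chac1, a glutathione-degrading enzyme downstream of ATF4 (chromosome 2, 119351242 to 119354326), was the one gene called between 100 and 1 µg/ml at 2 h. It had 9.69, 7.69 and 9.86 CPM at 100 µg/ml and 23.1, 17.8 and 20.7 CPM at 1 µg/ml, against 9.62, 10.5 and 11.1 CPM in untreated cells. The 1 µg/ml libraries stood above both other groups, which overlapped, and 100 over 1 µg/ml was -1.19 ± 0.27 (adjusted p = 0.00413), kept in every alternative. Against untreated cells Chac1 rose at 1 µg/ml by 0.99 ± 0.26 (adjusted p = 0.0106) and at 10 µg/ml by 1.14 ± 0.26 (adjusted p = 0.00151), with 19.96, 13.9 and 36.3 CPM in the libraries of 10 µg/ml. The call at 1 µg/ml did not hold without library 1 of 1 µg/ml (adjusted p = 0.0673) or library 1 of untreated cells (adjusted p = 0.0699). The call at 10 µg/ml was lost without library 3 of 10 µg/ml (adjusted p = 0.0695).

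Sesn2 encodes sestrin 2, a leucine sensor that restrains mTORC1 (chromosome 4, 132492804 to 132510456). At 48 h it had 23.1, 20.4 and 27.4 CPM at 100 µg/ml, against 11.8, 12.9 and 17.3 CPM at 1 µg/ml and 14.8, 17.4 and 19.2 CPM in untreated cells. The 100 µg/ml libraries lay above both, and the difference from 1 µg/ml was 0.75 ± 0.21 (adjusted p = 0.0118). That call did not hold without library 3 of 100 µg/ml (adjusted p = 0.0938) or library 1 or 2 of 1 µg/ml (adjusted p = 0.0754 or 0.0534). It also missed the threshold with a term for header spelling (adjusted p = 0.171).

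Stc2, the secreted glycoprotein stanniocalcin 2 (chromosome 11, 31359441 to 31370061), went the other way. At 72 h it had 7.60, 10.5 and 7.46 CPM at 100 µg/ml, against 11.9, 12.8 and 18.6 CPM at 1 µg/ml and 22.8, 25.8 and 21.3 CPM in untreated cells. The 3 groups did not overlap, and 100 over 1 µg/ml was -0.73 ± 0.25 (adjusted p = 0.0445). The call of 100 over 1 µg/ml was lost without library 1 or 3 of 100 µg/ml (adjusted p = 0.13 or 0.157) or library 3 of 1 µg/ml (adjusted p = 0.269). It was also lost in a fit of only the libraries compared (adjusted p = 0.0668) and with DESeq2 (adjusted p = 0.0617). Ddit4, the mTORC1 inhibitor REDD1, was not called between doses, and at 48 h it had 48.9, 39.5 and 40.4 CPM at 100 µg/ml and 37.9, 34.3 and 34.3 CPM at 1 µg/ml, against 105, 125 and 115 CPM in untreated cells. Both doses lay below untreated cells without overlap (-1.42 ± 0.13 and -1.69 ± 0.13).

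Whether the difference between 100 and 1 µg/ml itself depended on time was tested as an interaction over the 4 times, and 10 of the 32 genes were called, against 6.78% of all genes tested. They were Phgdh, Asns, Nupr1, Shmt2, Chac1, Mthfd2, Slc1a5, Cth, Bcat1 and Slc7a1. Asns, Chac1, Mthfd2, Nupr1, Phgdh, Shmt2 and Slc1a5 were called in all 31 alternatives, Bcat1 in 18 and Slc7a1 in 15, with adjusted p up to 0.122 and 0.115 where not. Cth was called in 30, the exception being without library 2 of 100 µg/ml at 24 h (adjusted p = 0.0545). At 24 h, relative to 2 h, the difference was lower for 3 genes, against 2.79% of all genes, namely Phgdh (-0.62 ± 0.14), Shmt2 (-0.60 ± 0.15) and Cth (-0.95 ± 0.24). At 48 h, relative to 2 h, it was higher for 2 genes, against 1.17% of all genes, namely Chac1 (1.64 ± 0.39) and Nupr1 (0.83 ± 0.15). At 72 h, relative to 2 h, it was higher for 6 genes, against 2.14% of all genes, namely Mthfd2 (0.68 ± 0.19), Asns (0.61 ± 0.17), Bcat1 (1.28 ± 0.34), Slc7a1 (0.79 ± 0.21), Slc1a5 (0.69 ± 0.18) and Chac1 (2.02 ± 0.46).

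Some of these single contrasts between times hung on single libraries. At 72 relative to 2 h, leaving out single libraries gave 3 to 6 calls against 6 with all libraries, with 3 without library 3 of 100 µg/ml at 2 h or library 2 of 100 µg/ml at 72 h or library 3 of 100 µg/ml at 72 h. The Shmt2 call at 24 relative to 2 h did not hold without library 2 of 1 µg/ml at 24 h (adjusted p = 0.0769). The threshold was also missed with a term for header spelling (adjusted p = 0.092). The Chac1 call at 48 relative to 2 h was lost without library 1 of 100 µg/ml at 48 h (adjusted p = 0.0541). The Asns call at 72 relative to 2 h did not hold without library 3 of 100 µg/ml at 72 h (adjusted p = 0.0729) or library 3 of 100 µg/ml at 2 h (adjusted p = 0.0783) or library 1 or 3 of 1 µg/ml at 72 h (adjusted p = 0.0817 or 0.0611) or library 1 of 1 µg/ml at 2 h (adjusted p = 0.0928). It also missed the threshold without the filter on low counts (adjusted p = 0.0879) and with DESeq2 (adjusted p = 0.0628). The Bcat1 call at 72 relative to 2 h was lost without library 3 of 100 µg/ml at 72 h (adjusted p = 0.0901) or library 1 or 2 of 1 µg/ml at 72 h (adjusted p = 0.0742 or 0.0561). The Mthfd2 call at 72 relative to 2 h did not hold without library 1 or 2 of 100 µg/ml at 72 h (adjusted p = 0.0686 or 0.12) or library 3 of 100 µg/ml at 2 h (adjusted p = 0.0803) or library 1 or 2 of 1 µg/ml at 72 h (adjusted p = 0.0603 or 0.0781) or library 2 of 1 µg/ml at 2 h (adjusted p = 0.0806). The Slc1a5 call at 72 relative to 2 h was lost without library 2 of 100 µg/ml at 72 h (adjusted p = 0.065) or library 3 of 100 µg/ml at 2 h (adjusted p = 0.0568) or library 1 of 1 µg/ml at 2 h (adjusted p = 0.0819). The Slc7a1 call at 72 relative to 2 h did not hold without library 2 or 3 of 100 µg/ml at 72 h (adjusted p = 0.125 or 0.108) or library 2 of 1 µg/ml at 72 h (adjusted p = 0.104). It also missed the threshold in a fit of only the libraries compared (adjusted p = 0.0571).

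As a description of the sign alone, 11, 7, 19 and 22 of the 32 genes lay above 0 at 100 over 1 µg/ml at 2, 24, 48 and 72 h, and 17 lay below 0 at 24 h and above 0 at 72 h. The shares of all tested genes with these signs were not counted, so these numbers have nothing to be set against. The summed level of the 33 genes was 1806 to 1854 CPM at 100 µg/ml and 1908 to 2000 CPM at 1 µg/ml after 24 h, and 1793 to 1860 CPM at 100 µg/ml and 1434 to 1559 CPM at 1 µg/ml after 72 h, against 2199 to 2313 CPM in untreated cells. At 2 h it was 2358 to 2737 CPM over the 9 C1q libraries. The sum was about level from 24 to 72 h at 100 µg/ml and lower at 72 than at 24 h at 1 µg/ml.

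**Figure D4:**
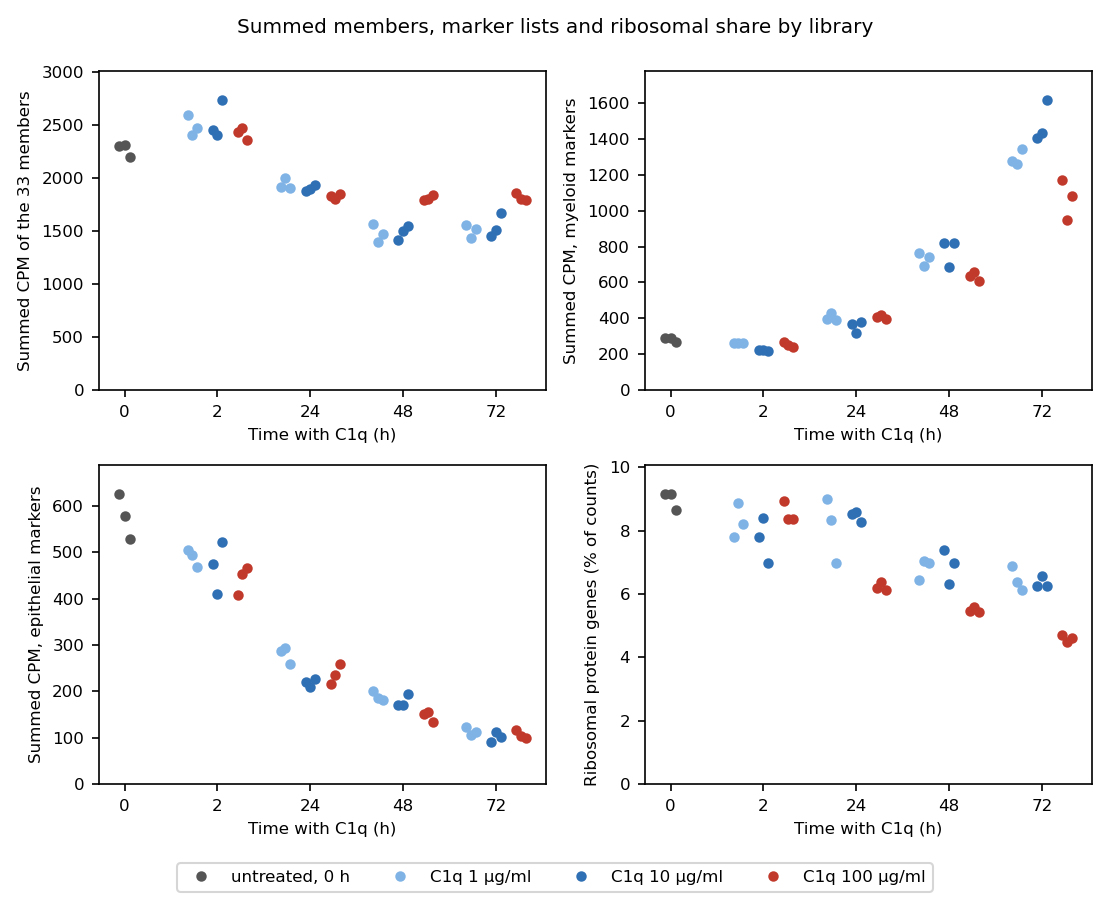
Summed level of the 33 genes, of the myeloid markers and of the epithelial markers (CPM), and the share of counts in ribosomal protein genes (percent), in each library by time and C1q dose. The sum of the 33 genes lies at 1793 to 1860 CPM at 100 µg/ml and at 1434 to 1559 CPM at 1 µg/ml after 72 h, while the myeloid sum is lower at 100 than at 1 µg/ml.

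Summed markers of several cell types and the share of ribosomal genes also parted between 100 and 1 µg/ml. The myeloid sum was 609.7 to 656 CPM at 100 µg/ml and 691 to 765 CPM at 1 µg/ml after 48 h, and 947 to 1170 CPM at 100 µg/ml and 1258 to 1344 CPM at 1 µg/ml after 72 h. Of the 12 myeloid markers, 0, 1, 4 and 6 were lower at 100 than at 1 µg/ml at 2, 24, 48 and 72 h. The fibroblast sum was 7529 to 8260 CPM at 100 µg/ml and 9439 to 11678 CPM at 1 µg/ml after 24 h, and it was again lower without overlap at 48 h, with 6 and 5 of the 10 fibroblast markers lower and 0 higher. At 72 h the fibroblast sums overlapped, with 2 markers higher and 1 lower. The sum of 8 endothelial markers was lower at 100 µg/ml without overlap at 2, 24, 48 and 72 h, with 66.4 to 79.2 CPM at 100 µg/ml and 89.4 to 119.8 CPM at 1 µg/ml after 72 h. That of 6 mesothelial markers was lower at 48 and 72 h, with 345 to 393 CPM at 100 µg/ml and 519 to 589 CPM at 1 µg/ml after 72 h. The epithelial sum was lower at 2 and 48 h, with 134 to 156 CPM at 100 µg/ml and 182 to 202 CPM at 1 µg/ml after 48 h, and the sum of 7 mural markers was lower at 24 h. The lymphocyte sum was higher at 100 µg/ml at 2 and 48 h but at most 3.29 CPM there. Library totals were also lower without overlap at 48 h, with 1845809 to 2154277 counts at 100 µg/ml and 2515112 to 2819956 at 1 µg/ml, and at 72 h, with 1990759 to 2466076 counts at 100 µg/ml and 2492980 to 2615057 at 1 µg/ml. Ribosomal protein genes held 6.13 to 6.38% of counts at 100 µg/ml and 6.97 to 9.01% at 1 µg/ml after 24 h, and 4.49 to 4.70% at 100 µg/ml and 6.12 to 6.89% at 1 µg/ml after 72 h, against 8.64 to 9.17% in untreated cells. The TMM scaling factors were higher at 100 than at 1 µg/ml without overlap at 2, 24, 48 and 72 h. At 24 h they were 1.072 to 1.096 at 100 µg/ml and 0.974 to 1.043 at 1 µg/ml. The part of these measures in the dose differences of the amino acid genes was not tested.

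Over the doses, most of the fall lay between 2 and 24 h. At 24 over 2 h, 3 genes rose and 21 fell, against 29.3% and 28.6% of all genes tested. The median of the 32 was -0.62. Slc7a1 (-1.605 ± 0.079), Mthfd2 (-1.34 ± 0.07) and Shmt2 (-1.31 ± 0.06) fell most, and Glul (0.77 ± 0.06), Nupr1 (0.57 ± 0.06) and Slc43a1, a transporter of large neutral amino acids (0.42 ± 0.12), rose. The Slc43a1 call was lost with a term for header spelling (adjusted p = 0.115). Of the 53 calls between neighbouring times, 18 (34%) came from libraries of both times that did not overlap, against 18.9% of such calls over all genes. At 48 over 24 h, 2 rose and 17 fell, against 12.8% and 12.1% of all genes, and the median was -0.28. Ddit4 had the largest fall (-1.54 ± 0.07), and at 72 over 48 h it was higher (0.89 ± 0.08). At 72 over 48 h, 3 rose and 7 fell, against 8.38% and 8.27% of all genes, with Chac1 at -1.15 ± 0.19 and a median of -0.12. By mean over the groups of a time, 19 of the 33 genes were highest at 2 h, 8 at 0 h, 2 at 24 h and 4 at 72 h, and 16 were lowest at 72 h and 11 at 48 h. The same was not counted over all genes.

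Other genes of the same pathways were read from lists made by function, and the examples named were chosen after their values were seen. All examples named were higher at 100 than at 1 µg/ml, and the genes counted as lower are not named. The examples therefore do not stand for their lists, each of which also held genes that were lower at 100 µg/ml. Of 23 tested regulators and targets of the integrated stress response, 2, 2, 6 and 4 were higher and 1, 5, 1 and 1 lower at 100 than at 1 µg/ml at 2, 24, 48 and 72 h. The transcription factors ATF4 and ATF5 were among those higher late, with Atf4 at 0.48 ± 0.09 at 48 h and 0.48 ± 0.09 at 72 h (adjusted p = 0.00028 and 0.000249) and Atf5 at 0.99 ± 0.08 and 1.29 ± 0.08 (adjusted p = 1.22e-12 and 3.51e-16). So were Ddit3, which encodes CHOP (1.06 ± 0.11 at 48 h and 1.00 ± 0.11 at 72 h), and Trib3, a pseudokinase that ATF4 induces (1.23 ± 0.18 and 1.14 ± 0.21). Of 27 other amino acid transporters, 0, 3, 2 and 3 were higher and 0, 1, 1 and 0 lower, with Slc1a3, a glutamate carrier, at 0.65 ± 0.10, 0.74 ± 0.10 and 0.69 ± 0.09 at 24, 48 and 72 h. Of 40 other amino acid and one-carbon enzymes, 2, 3, 4 and 3 were higher and 1, 5, 2 and 2 lower, among them Cdo1, cysteine dioxygenase, at 0.65 ± 0.10, 1.06 ± 0.10 and 1.19 ± 0.10 at the same times. Of 34 genes of amino acid sensing by mTORC1, 0, 1, 1 and 1 were higher and 1, 1, 4 and 1 lower. The shares of all genes called in these comparisons are those given above for 100 over 1 µg/ml.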

How the data were processed

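The authors deposited 1 table of raw counts per gene from 5′ RNA sequencing of 39 libraries. The submitters' processing notes name cutadapt 2.1.0, Bowtie2 2.4.2 and the build GRCm38. How reads were counted, by which annotation and strand, is not given in the sources used here, so reads of overlapping genes or near-identical copies cannot be told apart. Columns were matched to samples by title, and 9 with another spelling by the serial number in the name.

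Counts were tested with edgeR 4.0.16 (quasi-likelihood, TMM, default count filter, R 4.3.3) in 1 fit over 13 groups, with Benjamini-Hochberg adjustment over 14419 genes and a threshold of 0.05. The 27 comparisons were each C1q group against untreated cells, 100 and 10 over 1 µg/ml at each time, neighbouring times over doses, and the dose difference by time. The labels do not say that replicates are separate cultures, so p-values measure the spread between libraries, which may be technical. Replicate pairs had a chi-square per degree of freedom of 1.31 to 8.48 over 39 pairs (20 or more counts per gene), so none looked deposited in duplicate. The tests were tried on simulated data with known changes.

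The genes and lists were chosen with earlier results of these data known. Per-library values were given for up to 16 genes with a mean log2 CPM of at least 3 and a call between doses, in the dose difference by time, or in 1 direction in at least 10 of the 12 comparisons with untreated cells; those of Slc1a5, Slc3a2, Glul and Ddit4 were added after their values were seen. Alternatives were DESeq2 1.42.0, RLE scaling, no filter, a robust fit, leaving out the abundant row LOC118568312, a term for header spelling, only the libraries compared, and each library left out in turn. Promoter windows are RefSeq's for GRCm38.p6. Plots came from matplotlib 3.10.9 (Python 3.11.15).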

Additional observations from a re-analysis of the deposited data

Results flagged for a closer look

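For 10 of the 32 tested genes the difference between 100 and 1 µg/ml C1q changed with time by the interaction test of edgeR, with 3 libraries in each of the 8 groups. The adjusted p given here for each gene is that of the interaction test, which has no direction and belongs to no single time. Phgdh (adjusted p = 3.54e-05), Shmt2 (adjusted p = 0.00181) and Cth (adjusted p = 0.00939) were lower at 100 than at 1 µg/ml at 24 h. Phgdh was also called higher at 72 h. Asns was lower at 24 h and higher at 48 and 72 h (adjusted p = 0.000136). Nupr1 was higher from 24 h on, with its largest difference at 48 h (adjusted p = 0.00103). Chac1 was lower at 2 h and not called later (adjusted p = 0.00202). Mthfd2 (adjusted p = 0.00709), Slc1a5 (adjusted p = 0.0072) and Bcat1 (adjusted p = 0.0345) were higher at 72 h, and Slc1a5 was also called higher at 48 h. Slc7a1 (adjusted p = 0.0397) was not called between these doses at any single time. Of the 31 alternatives, Bcat1 was called in 18 and Slc7a1 in 15, and most of the losses came from leaving out single libraries. Cth was called in 30 and the other 7 genes in all 31. These counts are for the interaction test and not for the calls at single times. The calls of 100 over 1 µg/ml for Phgdh, Mthfd2 and Bcat1 at 72 h did not hold in every alternative. Neither did those for Asns at 24 and 48 h, Nupr1 at 24 h and Slc1a5 at 48 h.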

How the results depend on the processing

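The numbers of genes called in the 27 comparisons were recomputed in 423 alternatives, of which 407 gave a count within 1.5 times the one reported and 16, in 6 comparisons, did not. Leaving out single libraries gave 2 to 3 calls at 1 µg/ml and 2 h against untreated cells (4 with all), 2 to 6 at 100 over 1 µg/ml at 48 h (7 with all), 5 to 8 at 72 h (10 with all) and 3 to 6 for 72 relative to 2 h (6 with all). At 100 over 1 µg/ml at 24 h, 4 of 7 calls were left with a term for header spelling and 4 with only the libraries compared. At 72 h, 6 were called without the filter and 5 with DESeq2, against 10. For 48 relative to 2 h DESeq2 called 1 gene against 2, having given no adjusted p for Chac1. The sign of 1 call reversed. Got1 was lower at 24 than at 2 h, with means of 18.96 and 24.8 CPM over the doses. With the header term its log2 difference was 0.0046. The causes were not tested. Of 292 calls of single genes, 220 were kept in every alternative that gave an adjusted p. Among them were 9 of 25 between 100 and 1 µg/ml, 167 of 203 against untreated cells, 40 of 53 between times and 4 of 11 of the single contrasts of dose difference by time. The reversed sign was counted apart and not as a loss. RLE scaling moved the median of all genes by at most 0.0263 on the log2 scale. Among the alternatives other than leaving out single libraries, the largest shift was 0.052, without the filter on low counts. Over all genes, the count at 100 over 1 µg/ml and 24 h was 488 with the header term and 685 with only the libraries compared, against 1582. The header term gave 276 and only the libraries compared 381 for 24 relative to 2 h, against 705. With the header term there were also 1718 against 4009 calls at 10 µg/ml and 24 h, 2247 against 5287 at 100 µg/ml and 24 h and 3150 against 4771 at 1 µg/ml and 48 h over untreated cells, 4714 against 8346 for 24 over 2 h and 2340 against 3589 for 48 over 24 h. Only the libraries compared gave 302 against 465 calls at 100 over 1 µg/ml and 2 h. For 10 over 1 µg/ml the count moved between 50 and 162 at 2 h, 0 and 81 at 24 h, 0 and 78 at 48 h and 0 and 7 at 72 h. No paired analysis was possible because replicate numbers were given in accession order and only name libraries. Genes under about 5 CPM, such as Shmt1, Slc7a3 and Cbs, rest on few counts.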

Other observations

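The genes that charge amino acids to tRNA were lower than in untreated cells from 24 h on. Of 23 tested cytosolic aminoacyl-tRNA synthetases and scaffold genes, 20, 20 and 23 fell at 1, 10 and 100 µg/ml at 24 h by edgeR's test, against 14.3%, 15.3% and 19.9% of all genes, with median log2 differences of -0.52, -0.64 and -0.70. At 48 h 22, 21 and 23 fell, against 17.1%, 17.5% and 20.9% of all genes, with medians of -0.74, -0.77 and -0.81. At 72 h 22, 23 and 22 fell, against 20.1%, 20.6% and 23.3% of all genes, with medians of -0.84, -0.83 and -0.82. At 2 h 0, 1 and 1 fell, against 1.87%, 5.1% and 2.02% of all genes, and 0, 1 and 0 rose, against 4.28%, 7.64% and 3.14%. The medians at 2 h were 0.14, 0.10 and -0.05. Between 100 and 1 µg/ml, 0, 0, 1 and 2 were higher and 0, 3, 1 and 1 lower at 2, 24, 48 and 72 h, and the shares of all genes are those given in the report for this comparison. As with the synthesis genes, C1q and time in culture cannot be told apart in the comparisons with untreated cells.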
